A study of Mus musculus with 8 samples.

Results

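Heat shock proteins and DnaJ proteins are the main protein-folding machines of the cell, and their transcripts were followed in the ovary of obese mice after treatment with pioglitazone. Genes were taken whose platform symbol begins with Hspa, Hspb, Hspd, Hspe, Hsph, Hsp90, Dnaja, Dnajb or Dnajc, or is Hsf1 or Hsf2, with Hspbap1 left out. This gave 71 of the 18069 genes named on the array, and each gene was read from its brightest probe over the 8 arrays. The animals were female LY mice (C57BL/6J Ay/a), in which a dominant agouti allele is active in most tissues and leads to obesity and insulin resistance. Vehicle-treated LY mice received DMSO by gavage and pioglitazone-treated LY mice received pioglitazone, an insulin-sensitizing agonist of the nuclear receptor PPARγ, every day over 60 days, with the first dose at 120 days and the last at 180 days of age. The labels give 0.1 mg of pioglitazone per day, and the study's methods give a lower dose. RNA of 1 ovary from each of 4 vehicle-treated and 4 pioglitazone-treated mice was hybridised, each to its own CodeLink Whole Mouse Genome array, and all 8 mice carried the Ay allele. Untreated BL mice were not analysed here, and the stage of the estrous cycle was not given in the sources used here. Values are background-corrected fluorescence divided by the median of the slide, called relative intensity units, and 0.2 units is the limit of sensitivity.

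Members of the Hsp70 family bind exposed hydrophobic stretches of proteins, close on them when ATP is hydrolysed and let them go when new ATP is bound. DnaJ proteins bring clients to Hsp70 and start the hydrolysis, while exchange factors of the Hsp110 and Hspbp1 kind remove the spent nucleotide and so open the way to release. Hsp90 takes over clients at a late stage of folding, such as the steroid hormone receptors that an ovary depends on, the chaperonin Hspd1 with its lid Hspe1 folds proteins inside the mitochondrion, and small heat shock proteins hold unfolded chains without using ATP. Heat shock factors bind heat shock elements, which are inverted repeats of GAA and TTC units, and switch on the stress-inducible members. Chaperones of the endoplasmic reticulum such as Hspa5 are switched on instead through the endoplasmic reticulum stress element when unfolded secretory proteins build up. Each of these classes was present among the 71 genes, with 13 Hsp70 genes, 1 Hsp110 gene, 1 exchange factor, 2 Hsp90 genes, 2 chaperonin genes, 7 small heat shock protein genes, 1 heat shock factor (Hsf2) and 44 DnaJ genes, of which 4 were of class A, 13 of class B and 27 of class C. Classes were set by gene symbol, so Hspa4, an Hsp110-like exchange factor, was counted with Hsp70. Hsf1, Hsp90ab1, Dnajc25 and Hspb11 carried no name on the platform and were not analysed here.

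The promoters of some of these genes hold the letters of both elements. RefSeq windows of 300 bases, from 250 before to 50 after the transcript start (GRCm38.p6), were found for 58 of the 71 genes, in 75 windows. A heat shock element of 3 units, GAA NN TTC NN GAA or TTC NN GAA NN TTC with N any base, which together cover both strands, lay in 6 of the 75 windows (8%), those of Dnajb6, Hspd1, Hspe1 and Hsph1, and in 0.603% of all 32851 windows. A shorter element of 2 units, GAANNTTC or TTCNNGAA, each its own reverse complement and part of the longer one, lay in 18 of the 75 windows (24%) and in 15.1% of all windows. Both counts, and the shares over all windows, are of windows and not of separate sites. The matching windows of Hspd1 and Hspe1 hold the same site, as do those of Dnajb6 and those of Hsph1. The endoplasmic reticulum stress element, CCAAT and CCACG with 9 bases of any kind between them, on either strand, lay in 3 windows (4%), those of Hspa5, Hsp90b1 and Dnajc3, and in 0.119% of all windows. A match is a description of these letters in this window and not a measured site. The bases before the start are printed below for the genes whose values are compared further on, on the strand of the gene and with the matches in capitals. Hspd1 and Hspe1 are transcribed away from each other from starts 215 bases apart, so the first line is the whole stretch between them. The Hspa1a and Hspa1b windows were identical at 296 of 300 positions (98.7%).
Hspe1 (chr1:55087933-55088147, + strand): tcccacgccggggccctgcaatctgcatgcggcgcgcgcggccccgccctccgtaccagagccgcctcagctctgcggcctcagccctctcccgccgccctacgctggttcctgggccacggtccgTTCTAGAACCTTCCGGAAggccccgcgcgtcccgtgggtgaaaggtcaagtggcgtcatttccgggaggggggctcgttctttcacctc
Hspa1a (chr17:34972157-34972306, - strand): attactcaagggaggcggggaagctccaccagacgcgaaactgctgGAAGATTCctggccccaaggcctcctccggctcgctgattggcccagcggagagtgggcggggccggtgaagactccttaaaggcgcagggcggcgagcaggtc
Hspa1b (chr17:34959239-34959388, - strand): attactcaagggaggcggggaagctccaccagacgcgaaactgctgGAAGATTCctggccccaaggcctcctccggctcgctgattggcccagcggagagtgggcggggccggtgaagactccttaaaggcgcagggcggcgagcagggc
Hspa5 (chr2:34771940-34772089, + strand): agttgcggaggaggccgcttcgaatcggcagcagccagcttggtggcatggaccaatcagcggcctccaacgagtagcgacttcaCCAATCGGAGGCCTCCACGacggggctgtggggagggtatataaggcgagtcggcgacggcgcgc
Hsp90b1 (chr10:86705445-86705694, - strand): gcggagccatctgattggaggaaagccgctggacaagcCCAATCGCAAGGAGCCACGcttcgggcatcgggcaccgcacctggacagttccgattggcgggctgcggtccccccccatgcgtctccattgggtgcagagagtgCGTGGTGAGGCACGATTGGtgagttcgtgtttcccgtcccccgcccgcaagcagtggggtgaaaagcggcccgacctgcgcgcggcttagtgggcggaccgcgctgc
Dnajc3 (chr14:118937782-118937931, + strand): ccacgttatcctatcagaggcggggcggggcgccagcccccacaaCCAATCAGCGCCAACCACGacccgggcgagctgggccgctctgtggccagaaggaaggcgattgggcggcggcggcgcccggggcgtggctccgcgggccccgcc

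Values of RNA integrity were not given in the sources used here, and the arrays were compared by simple measures. Each held 36227 probes with 47 to 211 missing spots, 82.5% to 83.9% of probes reached 0.2 units, and correlations of log2 values between arrays ran from 0.937 to 0.989. Genes of the follicle marked the tissue as ovary, with summed granulosa markers of 72.6 to 100.6 units in vehicle-treated and 74.9 to 145 units in pioglitazone-treated mice and summed oocyte markers of 74.5 to 114 and 76.5 to 128 units. Pioglitazone mouse 1 stood apart in several lists. Its summed adipocyte markers were 155 units, where the other 7 mice had 27.4 to 85.9, and its summed luteal markers were 133 units, where the other 7 mice had 239 to 378. Immediate early genes, which respond to handling of tissue, summed to 32.8 to 46.5 units in vehicle-treated and 27.2 to 38.4 units in pioglitazone-treated mice, with 0 of 10 tested called. In whole ovary, fewer cells of a type and less RNA per cell cannot be told apart.

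After 60 days of pioglitazone, few chaperone transcripts separated the groups. The comparison was tested in 65 of the 71 genes, those with 3 or more values per group and a group mean that reached 0.2 units. At unadjusted p under 0.05, limma called 4 of them (6.15%), where 4.85% of 16065 named genes and 5.5% of all probes were called by the same rule. Dnajc13 and Dnajc1 were lower with pioglitazone (3.27% of named genes were called lower), and Dnajc24 and Hspb7 were higher (1.57%). Hspb7 entered the test only through the group in which it was higher, with all vehicle values under 0.2 units, and without it 3 of 64 genes (4.69%) were called. After Benjamini-Hochberg adjustment over all 30634 probes tested, 0 members passed 0.05, as did 0% of all probes, and the smallest adjusted p of a member in limma was 0.837. The share called was thus close to that of all named genes. Without pioglitazone mouse 1 the call count was 5 (Dnajc13, Dnajc19, Hspb7, Hspb9 and Hspbp1) and without pioglitazone mouse 3 it was also 5, while without vehicle mouse 2 or pioglitazone mouse 4 it was 2. The median log2 fold change of the 65 genes was -0.10, beside -0.04 over all named genes, and 43 of the 65 (66.2%) were negative, beside 56.6% of named genes. With quantile normalization 36 of 65 were negative with a median of -0.02, and cyclic loess normalization gave the same number and a median of -0.02. Of all named genes, 50.2% were negative with quantile normalization.

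**Figure D1:**
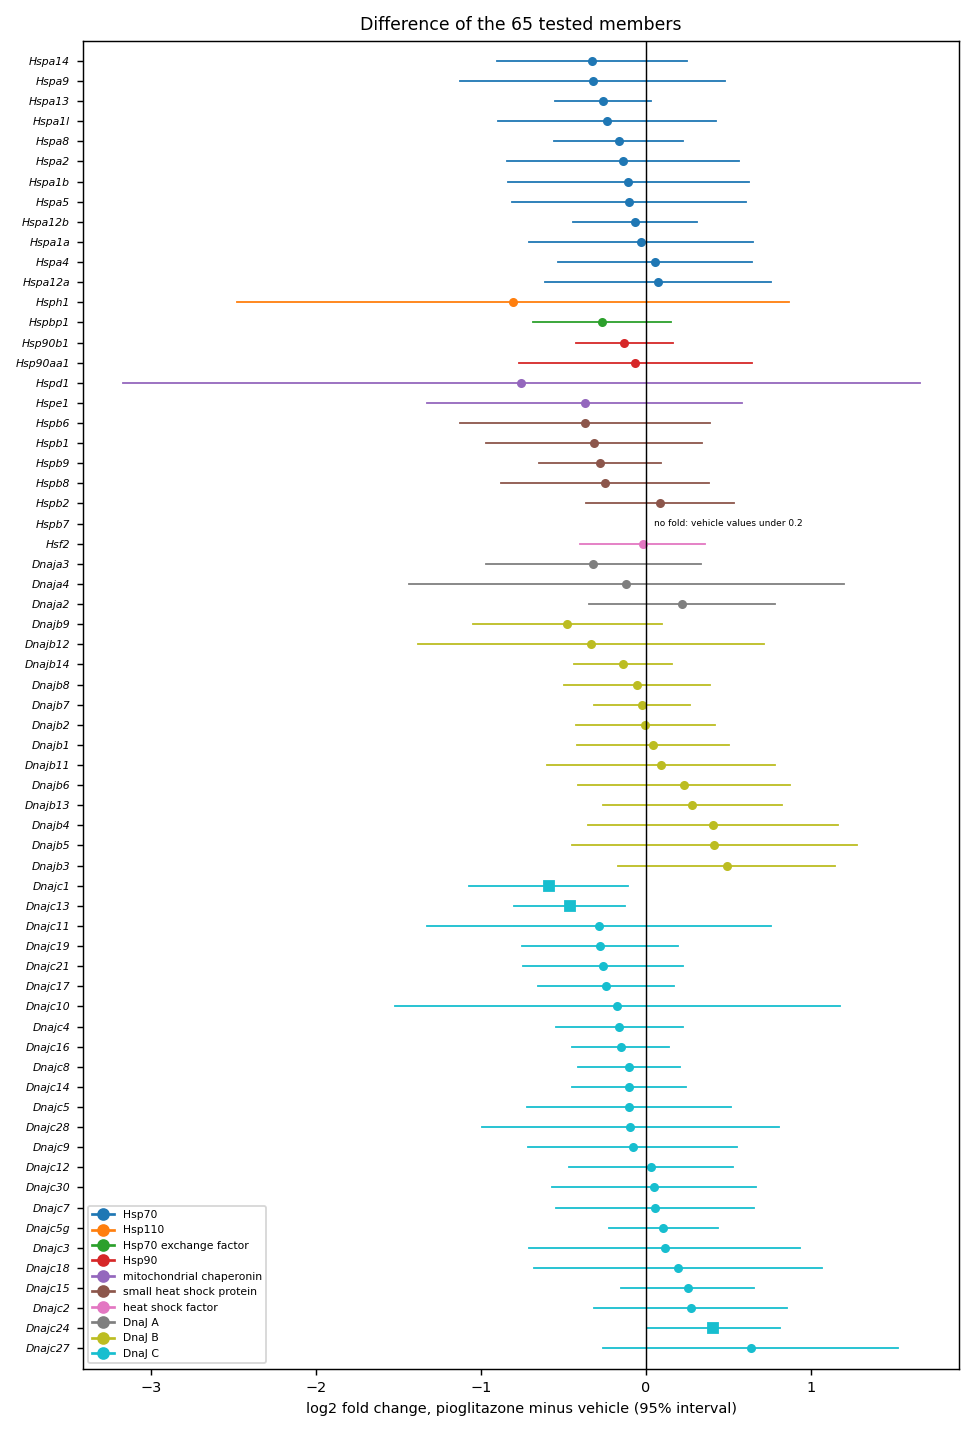
Log2 fold changes (pioglitazone minus vehicle, x axis) of the 65 tested genes, 1 row per gene, coloured by class. Points are limma estimates, lines are 95% intervals, and squares mark genes at unadjusted p under 0.05, with Dnajc13 at -0.46, Dnajc1 at -0.59 and Dnajc24 at 0.41. Hspb7 has no point since its vehicle values were under 0.2 units.

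Dnajc13, the RME-8 protein of endosomes that works with Hsc70 in sorting membrane receptors, was lower in every pioglitazone-treated mouse than in every vehicle-treated mouse. Vehicle mice 1 to 4 had 7.15, 6.02, 8.46 and 6.11 units, and pioglitazone mice 1 to 4 had 4.99, 4.77, 5.05 and 5.13 units. The 4 pioglitazone values lay close together and the vehicle values spread more widely. Means were 6.93 ± 1.14 and 4.98 ± 0.155 units (SD, n = 4 each). The log2 fold change was -0.46 (standard error 0.15, unadjusted p = 0.0119 and adjusted p = 0.837 in limma), and the 2-sided exact permutation p was 0.0286, the smallest that 4 against 4 mice allow when any mouse may take either group. The labels number the mice 1 to 4 in each group and do not say that equal numbers are pairs. With the mice paired by number, an exact test over the 4 pairs could not give less than 0.125, and limma gave an unadjusted p of 0.0158 (adjusted p = 0.575). The unadjusted call of Dnajc13 was kept under all 18 alternative settings, which reuse these mice and are no separate support.

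Dnajc1, a DnaJ protein of the endoplasmic reticulum membrane that binds Hspa5, was also lower. Vehicle mice 1 to 4 had 2.66, 3.34, 2.63 and 2.20 units, and pioglitazone mice had 1.37, 2.29, 2.16 and 1.48 units. The groups overlapped only through vehicle mouse 4 and pioglitazone mouse 2. Dnajc1 had a log2 fold change of -0.59 (standard error 0.21, unadjusted p = 0.0213 and adjusted p = 0.837 in limma). The call was lost without vehicle mouse 2 (-0.48), pioglitazone mouse 1 (-0.47) or pioglitazone mouse 4 (-0.50). A second Dnajc1 probe ranged from 0.975 to 1.76 units with a log2 fold change of -0.09 (standard error 0.20), and with the mean over both probes the log2 fold change was -0.34 and not called. With mice paired by number, Dnajc1 had an unadjusted p of 0.00708 in limma.

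Dnajc24 (Dph4), which takes part in the synthesis of diphthamide on elongation factor 2, was higher with pioglitazone. Vehicle mice 1 to 4 had 0.513, 0.779, 0.501 and 0.661 units, and pioglitazone mice had 0.935, 0.764, 0.751 and 0.764 units. Vehicle mouse 2 lay above 3 of the 4 pioglitazone mice, so the groups overlapped. Its log2 fold change was 0.41 (standard error 0.18, unadjusted p = 0.0479 and adjusted p = 0.837 in limma). In 12 of 18 alternative settings the call was lost. It was lost under the pairing by mouse number too (unadjusted p = 0.0612 and adjusted p = 0.575 in limma).

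Hspb7, a small heat shock protein best known from heart and skeletal muscle, was read near the limit of the array. Vehicle mice 1 to 4 had 0.110, 0.0243, 0.126 and 0.134 units and pioglitazone mice had 0.159, 0.313, 0.229 and 0.113 units. All 4 vehicle values and 2 of the pioglitazone values were under 0.2, so no fold is given, and the probe entered the test only through its pioglitazone mean of 0.203 units. The unadjusted p was 0.0353 in limma. The call was lost with values under 0.2 raised to 0.2, with a lower floor, with an intensity trend, with the methods' t-test and without vehicle mouse 2. With pairing by number it was also lost (unadjusted p = 0.0610 and adjusted p = 0.575 in limma). Striated muscle markers summed to 3.91 to 4.79 units in vehicle-treated and 3.38 to 4.55 units in pioglitazone-treated mice with 0 of 5 called. Smooth muscle markers summed to 240 to 294 and 280 to 345 units, with Myh11, Cnn1 and Synpo2 called higher of 8 tested. Each of them had an adjusted p of 0.837 in limma, and 1.57% of named genes were called higher. The part of smooth muscle in the Hspb7 value was not tested.

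Besides Dnajc13, the groups did not overlap in 1 other gene, Dnajb3, which was chosen after its values were seen. These 2 of 65 genes (3.08%) compare with 4.18% of 16002 named genes with a value on every array, of which 3.04% had all pioglitazone values below and 1.14% above. Dnajb3, a DnaJ gene known from male germ cells, had 3.89, 3.49, 1.51 and 4.02 units in vehicle mice 1 to 4 and 4.38, 4.19, 4.26 and 4.11 units in pioglitazone mice. Vehicle mouse 4 and pioglitazone mouse 4 nearly met, and vehicle mouse 3 lay far below the others. The log2 fold change of 0.49 (standard error 0.29) had an unadjusted p of 0.128 in limma. The 2-sided exact permutation p over all assignments of mice was 0.0286. Every gene whose groups do not overlap has this exact p, so it only repeats how Dnajb3 was chosen. With the mice paired by number the unadjusted p was 0.0999 in limma (adjusted p = 0.599). With mice paired by number Dnajc27, a Rab-like GTPase with a DnaJ domain, was called higher (log2 fold change 0.63, standard error 0.23, unadjusted p = 0.0276 and adjusted p = 0.575 in limma). It ran from 3.25 units in vehicle mouse 3 to 16.0 units in pioglitazone mouse 1, and without the pairing its unadjusted p was 0.143 in limma.

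**Figure D2:**
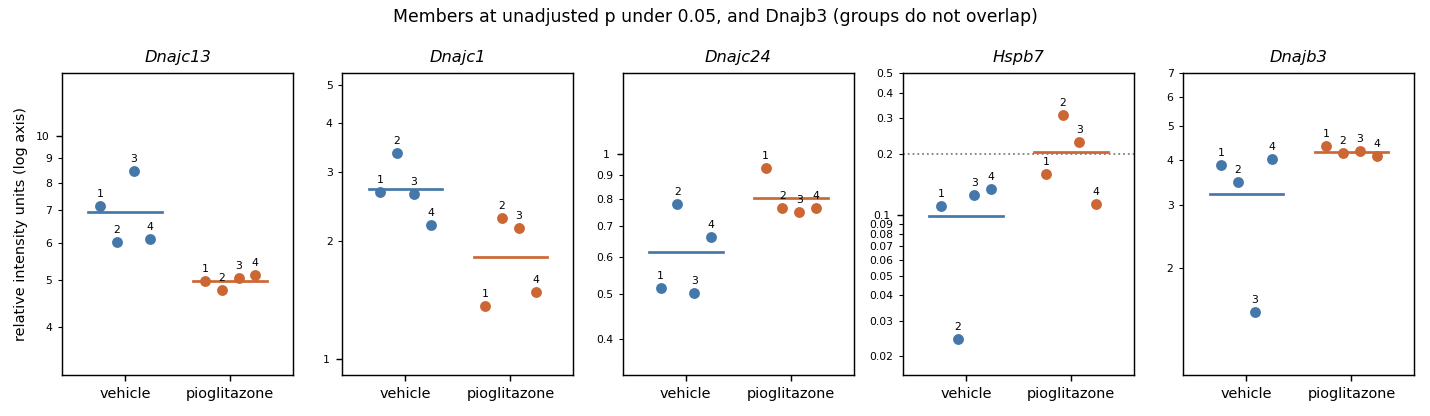
Relative intensity units (log axes) of Dnajc13, Dnajc1, Dnajc24, Hspb7 and Dnajb3 in each mouse. Points are mice with their numbers, horizontal lines mark the group means, and the dotted line in the Hspb7 panel is the limit of 0.2 units. The groups are apart in Dnajc13 and Dnajb3, and 4 vehicle and 2 pioglitazone values of Hspb7 are under the limit.

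The stress-inducible cytosolic chaperones did not separate the groups, though they varied between mice. The Hspa1b probe had 24.9, 18.9, 8.97 and 12.8 units in vehicle mice 1 to 4 and 19.5, 15.2, 10.3 and 13.2 units in pioglitazone mice. The Hspa1a probe had 11.5, 11.2, 4.68 and 7.64 units in vehicle mice and 10.8, 7.99, 6.08 and 7.96 units in pioglitazone mice. In both probes vehicle mouse 3 was lowest and vehicle mouse 1 was highest, with the pioglitazone values between them. Hspa1a and Hspa1b are near-identical copies whose transcripts a probe may not tell apart, so the 2 probes cannot be taken as separate measurements. Their log2 fold changes were -0.03 (95% interval -0.71 to 0.65) and -0.11 (-0.84 to 0.62), and the first turned positive with quantile and with cyclic loess normalization.

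Hsp90aa1, the inducible cytosolic Hsp90, showed the same low vehicle mouse. It had 50.2, 53.6, 19.7 and 42.9 units in vehicle mice 1 to 4 and 45.6, 40.0, 36.7 and 28.4 units in pioglitazone mice, with means of 41.6 ± 15.3 and 37.7 ± 7.20 units (SD, n = 4 each). Its log2 fold change was -0.07 (95% interval -0.77 to 0.64) and turned positive with both other normalizations. Dnajb1, the Hsp40 partner of inducible Hsp70, had 4.87, 7.28, 4.27 and 5.86 units in vehicle mice and 4.40, 6.60, 6.23 and 5.50 units in pioglitazone mice, a log2 fold change of 0.04 (-0.42 to 0.50). In Dnajb1 the lowest values were in vehicle mice 3 and 1 and pioglitazone mouse 1, so mouse 1 of each group was near the bottom of Dnajb1 and near the top of Hspa1b. For each of these 4 genes the interval held 0 and differences of either sign. Hspa8, the constitutive Hsc70, was read from a probe close to the limit (0.256 to 0.419 units), which says little about this abundant chaperone. A second probe of Hspa8 is shared with Atp5j2 on the platform and was not used.

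**Figure D3:**
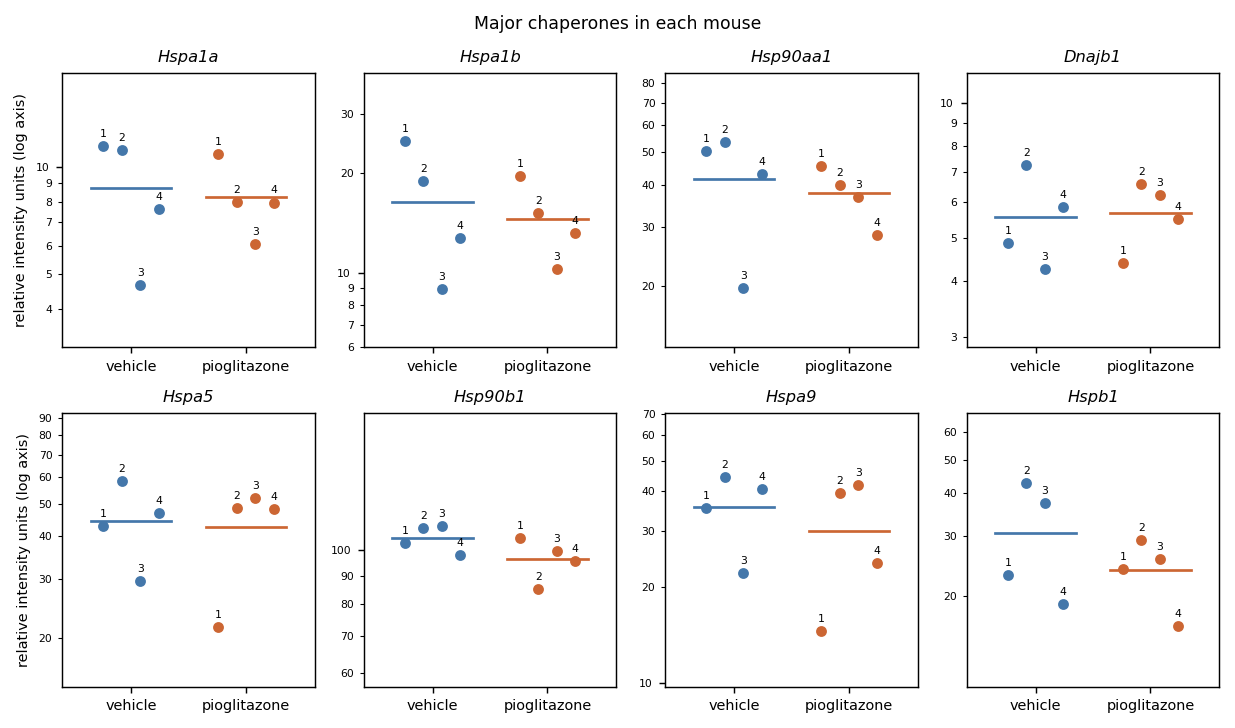
Relative intensity units (log axes) of Hspa1a, Hspa1b, Hsp90aa1, Dnajb1, Hspa5, Hsp90b1, Hspa9 and Hspb1 in each mouse. Points are mice with their numbers and horizontal lines are group means. Vehicle and pioglitazone values overlap in every panel, vehicle mouse 3 is lowest in Hspa1a, Hspa1b and Hsp90aa1, and pioglitazone mouse 1 is lowest in Hspa5 and Hspa9.

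None of the 12 tested Hsp70 genes was called, and 10 of the 12 log2 fold changes were negative (median -0.12). With quantile normalization 9 and with cyclic loess normalization 8 were negative. Hspa13 (Stch), a microsomal member that lacks the peptide-binding domain, had the smallest p, with 3.04, 2.72, 3.23 and 3.01 units in vehicle mice 1 to 4 and 2.37, 2.77, 2.47 and 2.40 units in pioglitazone mice. Pioglitazone mouse 2 overlapped the vehicle range, and the log2 fold change was -0.26 (standard error 0.13, unadjusted p = 0.0717 in limma). The other 2 Hspa13 probes had log2 fold changes of 0.18 (standard error 0.42) and -0.08 (0.13). Hspa4, an Hsp110-like exchange factor, ran from 26.5 units in vehicle mouse 3 to 60.1 units in pioglitazone mouse 1, with a log2 fold change of 0.06 (95% interval -0.53 to 0.64). Hspa12a, an atypical Hsp70, was at 40.3 units in pioglitazone mouse 1 and at 15.3 to 25.5 units in the other 7 mice. Hspa14, found with ribosomes, had its lowest value in the same mouse, 3.85 units, where the other 7 mice had 6.95 to 9.90. Log2 fold changes of Hspa2, Hspa12b and Hspa1l were -0.14, -0.07 and -0.24, and Hspa1l, under 0.2 units in 1 vehicle and 3 pioglitazone mice, entered the test only through its vehicle mean of 0.223 units. Hspbp1, an exchange factor of cytosolic Hsp70, had means of 17.6 ± 1.75 and 14.9 ± 3.48 units (SD, n = 4 each), for a log2 fold change of -0.26 (0.19). It was called lower without pioglitazone mouse 1 (-0.40), whose value of 19.4 units was the highest of the 8.

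Chaperones of the endoplasmic reticulum fold the receptors, zona proteins and hormones that ovarian cells make for export. Besides Dnajc1, described above, none of the members described here was called. Hspa5 (BiP), the Hsp70 of this compartment, had 42.9, 58.4, 29.6 and 47.1 units in vehicle mice 1 to 4 and 21.5, 48.4, 52.0 and 48.3 units in pioglitazone mice. Pioglitazone mouse 1 was at less than the other 3 pioglitazone mice by a wide gap, and the groups overlapped. Hspa5 had a log2 fold change of -0.10 (95% interval -0.81 to 0.60), and without pioglitazone mouse 1 it was 0.20. Hsp90b1 (GRP94), the Hsp90 of the same compartment, hardly varied, with 103, 110, 111 and 98.0 units in vehicle mice and 105, 85.2, 99.5 and 95.7 units in pioglitazone mice. Its log2 fold change was -0.13 (-0.42 to 0.16). Dnajb11 (ERdj3) and Dnajc3 (P58IPK), DnaJ partners of Hspa5, were both lowest in vehicle mouse 3, at 11.4 and 3.26 units, where the other 7 mice had 20.9 to 33.3 and 5.71 to 10.6 units. Dnajb9 (ERdj4), which helps to clear misfolded proteins, had 2.15, 2.72, 2.35 and 2.20 units in vehicle mice and 1.92, 2.27, 1.91 and 0.968 units in pioglitazone mice. Pioglitazone mouse 4 had the lowest Dnajb9 value and the groups overlapped through pioglitazone mouse 2. The log2 fold change was -0.48 (standard error 0.25, unadjusted p = 0.0932 in limma). Without pioglitazone mouse 2 it was called at -0.62, while without pioglitazone mouse 4 it was -0.21. A second Dnajb9 probe had a log2 fold change of -0.24 (0.35), and the mean over both probes gave -0.36. The 3 genes with an endoplasmic reticulum stress element, Hspa5, Hsp90b1 and Dnajc3, had their lowest values in 3 different mice.

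Hspd1 (Hsp60), the mitochondrial chaperonin, had the widest spread between mice among the 65 tested genes. It had 5.53, 29.1, 12.7 and 20.7 units in vehicle mice 1 to 4 and 0.995, 24.9, 41.9 and 4.97 units in pioglitazone mice. Within the pioglitazone group alone it went from its lowest to its highest value, and mouse 1 of each group and pioglitazone mouse 4 were low. The highest value was 42.1 times the lowest, and 11 of 16002 named genes (0.0687%) had a ratio as large. These values come from a single probe, and whether it also binds other transcripts was not tested. Without pioglitazone mouse 1 the ratio was 8.43, reached by 135 named genes (0.844%). The log2 fold change of -0.76 (95% interval -3.17 to 1.66) therefore says little about pioglitazone, and it was 0.27 without pioglitazone mouse 1.

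Hspe1 (Hsp10), the lid of the Hspd1 ring, starts 215 bases away on the opposite strand. The heat shock element printed above lies in both windows, and whether it acts in these ovaries was not tested. The Hspe1 probe ranked the mice differently from the Hspd1 probe. It had 21.0, 16.4, 6.16 and 16.1 units in vehicle mice 1 to 4 and 18.5, 12.0, 6.56 and 8.43 units in pioglitazone mice. Pioglitazone mouse 1, the lowest in Hspd1, was second highest in Hspe1, and pioglitazone mouse 3, the highest in Hspd1, was second lowest. This comparison was made after the values were seen. Hspe1 had a log2 fold change of -0.37 (95% interval -1.32 to 0.58), and both chaperonin genes were tested and 0 called.

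Hsph1 (Hsp110), an exchange factor, followed the mice in the manner of Hspd1. Its heat shock element of 3 units lay after the transcript start, where that of Hspd1 lay before it. Hsph1 had 0.554, 2.58, 0.861 and 1.39 units in vehicle mice and 0.198, 1.57, 1.70 and 0.347 units in pioglitazone mice. The ratio of highest to lowest was 13.0, which 0.812% of named genes reached. Dnajc10 (ERdj5), a disulfide reductase of the endoplasmic reticulum, had 2.20, 4.03, 3.78 and 4.71 units in vehicle mice and 0.803, 4.63, 7.32 and 3.58 units in pioglitazone mice. In Hspd1, Hsph1 and Dnajc10 the 3 lowest mice were vehicle mouse 1, pioglitazone mouse 1 and pioglitazone mouse 4. Some genes of the co-chaperone list counted below had the same 3 mice lowest, among them Cct2, Cct8, Trap1 and Fkbp5. Cct8 had 5.33, 24.1, 11.9 and 17.3 units in vehicle mice and 0.813, 21.6, 28.0 and 5.82 units in pioglitazone mice. Cct2 ran from 0.352 units in pioglitazone mouse 1 to 12.4 units in pioglitazone mouse 3. Cct3 and Cct4 were lowest in vehicle mouse 3, and the order was not counted over that list. The log2 fold changes of Hsph1 and Dnajc10 were -0.80 (95% interval -2.48 to 0.87) and -0.17 (-1.52 to 1.17). With 1 mouse left out that of Hsph1 ran from -1.26 to -0.23 (without pioglitazone mouse 1). Without pioglitazone mouse 1 the ratios were 7.44 for Hsph1 and 3.33 for Dnajc10. The same 3 mice were also the lowest in 4 of the 6 tested luteal markers, Cyp11a1, Akr1c18, Ptgfr and Scarb1. Cyp11a1, which starts steroid synthesis, had 30.0, 67.6, 68.2 and 46.1 units in vehicle mice 1 to 4 and 10.7, 41.7, 59.4 and 23.7 units in pioglitazone mice. Adipocyte markers had these 3 mice lowest in 0 of 6 genes and were highest in pioglitazone mouse 1. The part of luteal and adipose tissue in the chaperone values was not tested. Hspa9 (mortalin), the mitochondrial Hsp70, was also lowest in pioglitazone mouse 1, with 35.5, 44.2, 22.1 and 40.7 units in vehicle mice and 14.6, 39.6, 41.9 and 23.9 units in pioglitazone mice. Its log2 fold change was -0.32 (95% interval -1.13 to 0.48), and without pioglitazone mouse 1 it was -0.017.

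**Figure D4:**
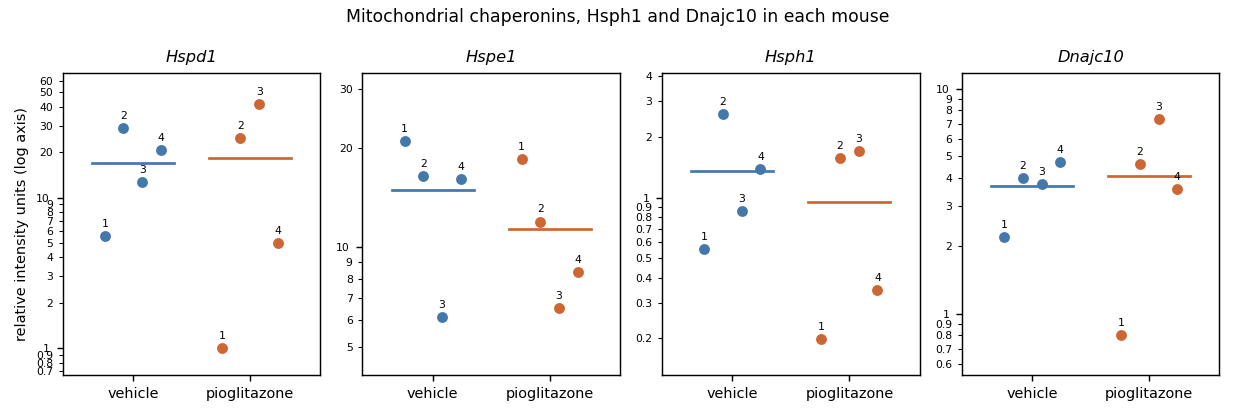
Relative intensity units (log axes) of Hspd1, Hspe1, Hsph1 and Dnajc10 in each mouse. Points are mice with their numbers and horizontal lines are group means. Hspd1 spans 0.995 to 41.9 units within the pioglitazone group, and Hspe1 orders the mice differently.

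Of the 6 tested small heat shock proteins, 1 was called, Hspb7, which entered the test only through its pioglitazone values, and 0 of the other 5 were. The call rule took 4.85% of named genes. Hspb1 (Hsp27), which binds actin and unfolded proteins, had 23.1, 42.9, 37.3 and 19.0 units in vehicle mice 1 to 4 and 24.02, 29.1, 25.6 and 16.4 units in pioglitazone mice. Vehicle mice 2 and 3 were the highest and the groups overlapped, with a log2 fold change of -0.32 (95% interval -0.97 to 0.34). Hspb8 (Hsp22), which works with Bag3 in selective autophagy, had 9.86, 17.1, 7.62 and 7.08 units in vehicle mice and 8.76, 7.72, 10.2 and 6.56 units in pioglitazone mice. Its difference rested on vehicle mouse 2, without which the log2 fold change of -0.25 became 0.02. Hspb6 (Hsp20), a small heat shock protein of smooth muscle, was at 7.29 units in vehicle mouse 3 and at 2.17 to 3.72 in the other 7 mice. Hspb9 had a log2 fold change of -0.28 (standard error 0.16) and Hspb2 one of 0.08 (0.20). Hsf2, the heat shock factor active in germ cells and development, varied little, with 2.14, 1.76, 2.29 and 1.71 units in vehicle mice and 2.20, 1.82, 1.59 and 2.20 units in pioglitazone mice. Its log2 fold change was -0.02 (95% interval -0.40 to 0.36) and turned positive with both other normalizations.

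Among DnaJ genes of class A, which carry the zinc-binding region of the bacterial prototype, 3 were tested and 0 called. Dnaja1, a partner of cytosolic Hsp70, had a missing spot in vehicle mice 1 and 4 and pioglitazone mouse 2 and was not fitted. Its remaining values were 87.6 and 47.0 units in vehicle mice 2 and 3 and 67.4, 60.2 and 47.8 units in pioglitazone mice 1, 3 and 4. Dnaja3 (Tid1), the DnaJ protein of mitochondria, had means of 0.815 ± 0.183 and 0.677 ± 0.254 units (SD, n = 4 each), with -0.32 (standard error 0.29) as log2 fold change. Dnaja2 had a log2 fold change of 0.22 (0.25), and Dnaja4 one of -0.12 (0.58) with values of 0.0868 to 0.591 units.

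Of the 13 genes of class B, 0 were called, and their median log2 fold change was 0.04, with 7 positive and 6 negative. Some of them were low in vehicle mouse 3. On its brightest probe Dnajb4 had 10.1 units there and 24.4 to 34.4 units in the other 7 mice, while a second Dnajb4 probe had 2.47 units there and a lower value, 2.41 units, in pioglitazone mouse 1. Dnajb6, a suppressor of polyglutamine aggregation, had 10.7 units in vehicle mouse 3 and 21.2 to 28.6 units elsewhere, and its second probe had 4.99 units there and 9.97 to 15.6 units elsewhere. Over all mice their log2 fold changes were 0.40 (standard error 0.34) and 0.23 (0.29). Dnajb13, a protein of the radial spoke of cilia and sperm tails, had a log2 fold change of 0.28 (0.24) on the brightest probe and 0.42 (0.30) on a second one. Dnajb12, which sits in the endoplasmic reticulum membrane, ran from 0.281 units in pioglitazone mouse 1 to 1.35 units in vehicle mouse 3. Dnajb14, its paralog, varied little, from 5.51 to 7.30 units, with a log2 fold change of -0.14 (0.13). Dnajb2, Dnajb5, Dnajb7 and Dnajb8 had log2 fold changes of -0.0045, 0.41, -0.03 and -0.05.

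Of 24 tested genes of class C, a mixed class that shares only the DnaJ domain, Dnajc13, Dnajc1 and Dnajc24 were called. This was 12.5%, beside 4.85% of named genes, and the difference between these shares was not tested. The median log2 fold change of the 24 genes was -0.10, with 14 negative, beside 12 negative with quantile normalization. Dnajc19, part of the motor that pulls proteins into mitochondria, had 27.9, 25.7, 22.7 and 21.7 units in vehicle mice 1 to 4 and 30.3, 16.6, 16.8 and 19.2 units in pioglitazone mice. Pioglitazone mouse 1 was the highest and the other 3 pioglitazone mice were the lowest, with a log2 fold change of -0.28 (standard error 0.21). Dnajc5 (cysteine string protein), which guards exocytosis, had means of 7.37 ± 2.02 and 6.84 ± 1.86 units (SD, n = 4 each), and its 2 other probes had log2 fold changes of -0.12 and 0.01. Dnajc7, a partner of both Hsp70 and Hsp90, had means of 29.8 ± 9.95 and 30.1 ± 6.71 units. Dnajc8, which is found in spliceosomes, was steady, with means of 12.3 ± 1.44 and 11.4 ± 0.636 units. Dnajc18 and Dnajc9, a histone chaperone, were lowest in vehicle mouse 3, at 4.63 and 6.95 units. Dnajc2, which sits on the ribosome, was highest in pioglitazone mouse 1 at 7.90 units, and so was Dnajc15 at 0.458 units. Log2 fold changes of Dnajc4, Dnajc14, Dnajc16, Dnajc17, Dnajc21 and Dnajc11 ran from -0.29 to -0.10, and those of Dnajc12, Dnajc28, Dnajc30 and Dnajc5g from -0.10 to 0.11. The dim genes Dnajc22, Dnajc5b, Dnajc6 (auxilin), Hspa4l and Hspb3 had group means under 0.2 units in both groups and were not tested.

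Seen by mouse, the members split in ways that crossed the groups. Vehicle mouse 3 had the lowest value in 20 of the 65 genes (30.8%, beside 24.5% of named genes) and the highest in 16 (24.6%, beside 22.6%). Pioglitazone mouse 1 had the lowest value in 16 (24.6%, beside 14.3% of named genes) and the highest in 15 (23.1%, beside 21%). Vehicle mouse 4 was neither highest nor lowest in any of the 65. It was also seldom extreme over all named genes (highest in 2.48% and lowest in 4.18%). The 3 lowest mice were vehicle mouse 1, pioglitazone mouse 1 and pioglitazone mouse 4 in 8 genes (12.3%, beside 6.12% of named genes), namely Dnaja3, Dnajb12, Dnajb2, Dnajc10, Dnajc28, Hspa8, Hspd1 and Hsph1. Among them Hspa8 was read close to the limit and Dnajc28 had 1 value under 0.2 units in each group, so their order is uncertain. Of the marker lists, luteal genes had the same 3 mice lowest in 4 of 6, immediate early genes in 1 of 10, striated muscle genes in 1 of 5, and the other lists in 0. The same 3 mice were the highest in 5 genes (7.69%, beside 6.86%). Of 51 genes with a mean of at least 1 unit, 3 had a highest value at least 5 times the lowest (5.88%, beside 3.62% of 10887 named genes), which were Hspd1, Hsph1 and Dnajc10. These counts were chosen after the values were seen and have no test.

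**Figure D5:**
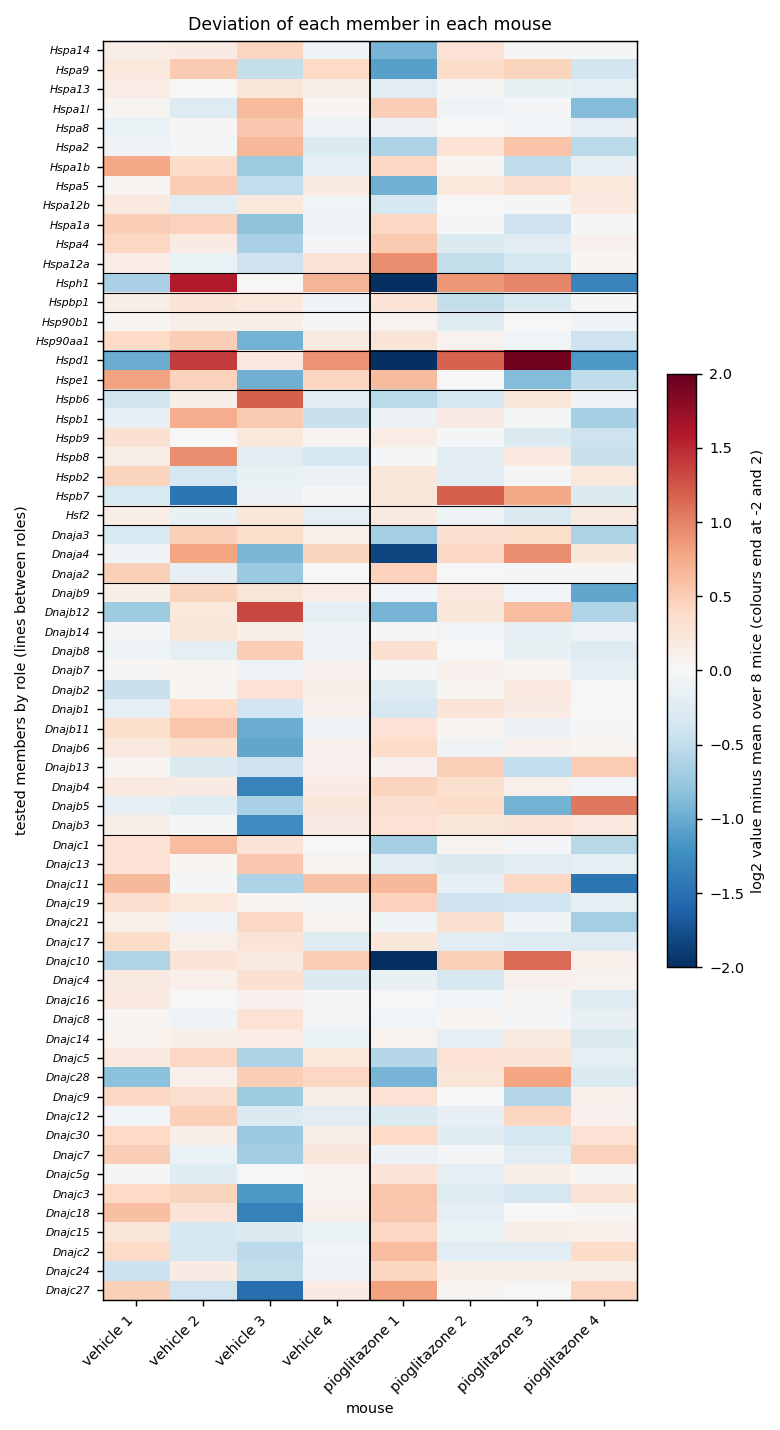
Deviation of each of the 65 tested genes (rows, by class) in each mouse (columns, vehicle left of the line and pioglitazone right of it), as the log2 value minus its mean over the 8 mice, with colours ending at -2 and 2. Hspd1, Hsph1 and Dnajc10 have their 3 lowest values in vehicle mouse 1, pioglitazone mouse 1 and pioglitazone mouse 4, and vehicle mouse 3 is lowest in 20 rows.

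Whether other cytosolic chaperones of the heat shock response rose and fell with Hspa1b, and chaperones of the endoplasmic reticulum with Hspa5, was asked in 6 pairs over the 8 mice. The pairs were not chosen by the promoter elements, since the windows of Dnajb1 and Dnajb11 held none of those searched and Hsp90aa1 had no window. Hspa1b and Hsp90aa1 had Pearson's r of 0.80 (2-sided exact permutation p = 0.0127, adjusted over the 6 pairs 0.0763) and Spearman's rho of 0.81 (exact p = 0.0218, adjusted 0.131). Without vehicle mice 1 and 3, the farthest from the median of Hspa1b, r was 0.64 over 6 mice (exact permutation p = 0.156). Leaving out the extreme mice narrows the range, so this value cannot tell whether the relation rested on them. With group means removed r was 0.80. Hspa1b had r of 0.04 with Dnajb1 (rho 0.07, exact permutation p = 0.914 and 0.882, adjusted 0.914 and 0.882) and -0.27 with Hsph1 (rho -0.29, exact permutation p = 0.519 and 0.501, adjusted 0.779 and 0.882). Of these 3 pairs of inducible cytosolic genes, only Hspa1b and Hsp90aa1 had an unadjusted p under 0.05. Hspa5 had r of -0.35 with Hsp90b1 (rho -0.31), 0.28 with Dnajb11 (rho 0.17) and 0.09 with Dnajc3 (rho -0.12), with exact permutation p from 0.385 to 0.830 and adjusted p from 0.779 to 0.914. Without vehicle mouse 3 and pioglitazone mouse 1, r of these 3 pairs was 0.36, 0.31 and -0.01, and with quantile and cyclic loess normalization r of Hspa5 and Hsp90b1 was positive (0.35 and 0.66).

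Other genes of the folding network were counted in the same way. Of a list of 64 co-chaperones and folding enzymes, 58 were named, 57 tested and 1 called, Calr (1.75%, beside 4.85% of named genes). Negative log2 fold changes were found in 41 (71.9%, beside 56.6% of named genes), and the median was -0.17, beside -0.04. The share of negative values depended on the normalization for the members and for all named genes. It was not counted for this list with the other normalizations. Calr (calreticulin), a lectin chaperone and calcium store of the endoplasmic reticulum, had means of 7.70 ± 0.764 and 5.80 ± 1.11 units (SD, n = 4 each). Its log2 fold change was -0.42 (standard error 0.17, unadjusted p = 0.0362 and adjusted p = 0.837 in limma), and it was not called with quantile or cyclic loess normalization (-0.34 in each) or without vehicle mouse 1, 2 or 3 or pioglitazone mouse 3 or 4. The next smallest p values in limma were those of Xbp1, the transcription factor of the unfolded protein response (unadjusted p = 0.0899), Ahsa2, of the family of Hsp90 activators (0.116), and Bag1, an exchange factor of Hsp70 (0.131), with log2 fold changes of -0.35, -0.29 and -0.27. By kind, 8 of 10 partners of Hsp70, 10 of 14 partners of Hsp90, 8 of 14 subunits of the cytosolic chaperonin and prefoldin, 5 of 6 small heat shock proteins and regulators, and 10 of 13 genes of folding and stress in the endoplasmic reticulum were negative, counts that have the same 56.6% of named genes beside them and no test.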

How the data were processed

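The deposited table holds linear intensity values, 1 per probe and mouse. Background was removed by the authors with the CodeLink software, and GeneSpring was then used to set each slide relative to its 50th percentile. The methods also name a division by gene, which was not seen in the values. Spots coded -9999 were read as missing. Slide and scan batches were not given in the sources used here, and all columns were matched to a labelled mouse. Every array was rescaled here to a median of 1, a floor of 0.05 was set, and limma (version 3.58.1, under R version 4.3.3) was run on the log2 scale with lmFit, eBayes and Benjamini-Hochberg adjustment over 30634 probes. Probes were named from the platform annotation, with 21615 assigned to 1 gene. All 71 symbols are in RefSeq unchanged. A probe needed at least 3 values per group and a mean of at least 0.2 units in 1 group. Where a gene has several probes the brightest was used. Precision is limited by the 4 arrays in each group, and p-values measure the spread between single mice.

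The members, the gene lists and the genes to be described (main members of each class, called members, the 5 brightest, the smallest p in each class) were chosen with earlier results of these data known. Dnajb3 and other genes with values given for their extreme mice were named after their values were seen. Groups and numbers come from the sample titles, which do not say what a number marks. Mice with the same number in the 2 groups deviated together from their group means (correlations over probes of 0.515, 0.181, 0.274 and 0.232), so the numbers were taken to pair the mice. The pairing is thus read from the values and not from the labels. The comparison without the pairing is reported, and the paired value is given where it changed a call. Alternatives were floors of 0.01 and 0.2, quantile and cyclic loess normalization, 2 other filters, an intensity trend, the methods' t-test, the replicate block, each mouse left out, and the mean over probes. The fit was tested on simulated data.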

Additional observations from a re-analysis of the deposited data

Results flagged for a closer look

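In 6 of the 130 groups of 4 mice (65 genes in 2 groups), the highest or lowest mouse lay far from the other 3 by Dixon's criterion, where chance gives about 1 in 20 groups, or 6.5. Pioglitazone mouse 1 accounted for 4 of these. Its value of Hspa5 was 21.5 units where the other pioglitazone mice had 48.3 to 52.0, and its values were above the others for Dnaja2 (10.7 against 7.53 to 7.89 units), Dnajc17 (10.7 against 7.66 to 7.85) and Dnajc24 (0.935 against 0.751 to 0.764). Vehicle mouse 3 accounted for the other 2, with Dnajb4 at 10.1 units where the other vehicle mice had 28.4 to 28.9 (on a second Dnajb4 probe it had 2.47 units, where they had 2.78 to 3.69), and Dnajb8 at 8.78 units where they had 5.44 to 5.88.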

How the results depend on the processing

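Under each alternative setting 0 members passed an adjusted p of 0.05. At unadjusted p under 0.05, 3 members were called with either floor, either normalization, either filter, the intensity trend, the methods' t-test, the replicate block and the mean over probes, beside 4 in the comparison as reported. Dnajc13 was called in all of these and Dnajc1 in all but the mean over probes. The replicate block called Dnajc1, Dnajc13 and Dnajc27 and changed no other member's call than those of Dnajc24, Hspb7 and Dnajc27, and the methods' t-test called Dnajc1, Dnajc13 and Hspa13, with 0 after adjustment. With 1 mouse left out the count ran from 2 (without vehicle mouse 2 or pioglitazone mouse 4) to 5 (without pioglitazone mouse 1 or 3), and the median log2 fold change from -0.15 to -0.07. Of the co-chaperone list 0 genes were called with quantile normalization and 0 with cyclic loess, and 0 to 3 with 1 mouse left out. Log2 fold changes turned positive with quantile and cyclic loess normalization in Hsf2 (0.016 and 0.027), Hsp90aa1 (0.018 and 0.046) and Hspa1a (0.047 and 0.052), with quantile in Hsp90b1 (0.021) and with cyclic loess in Hspa5 (0.0077). The correlations with quantile and cyclic loess turned in Hspa1b with Dnajb1 (-0.11 and -0.10), Hspa5 with Hsp90b1 (0.35 and 0.66) and Hspa5 with Dnajc3 (-0.050 and -0.0020). With 1 mouse left out, log2 fold changes ran from -0.077 to 0.18 in Dnajb1, -0.22 to 0.29 in Dnajb11, -0.25 to 0.28 in Dnajc3, -0.084 to 0.073 in Hsf2, -0.39 to 0.090 in Hsp90aa1, -0.30 to 0.13 in Hspa1a, -0.36 to 0.13 in Hspa1b, -0.15 to 0.20 in Hspa4, -0.29 to 0.20 in Hspa5, -0.40 to 0.018 in Hspb8 and -1.53 to 0.27 in Hspd1. Correlations ran from -0.40 to 0.28 for Hspa1b with Dnajb1, 0.70 to 0.87 for Hspa1b with Hsp90aa1 (adjusted p of 0.0441 and 0.0345 in the exact permutation test without pioglitazone mouse 3 or 4), -0.16 to 0.84 for Hspa5 with Dnajb11 and -0.47 to 0.75 for Hspa5 with Dnajc3. Over 29 genes given by the rule and 518 refits, 452 kept direction and side of the threshold, 29 lost a call, 4 gained one and 33 turned in sign. Values near 0.2 units, as in Hspb7, Hspa8, Hspa1l and the 5 dim genes, limit what can be said of those genes.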

Other observations

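Probes of a gene differed in Dnajc1, where 1 of 2 was called. In the other members with more than 1 tested probe no probe was called. Dnajb4 was lowest in vehicle mouse 3 on the brightest probe and in pioglitazone mouse 1 on the second (2.41 to 5.62 units over the 8 mice), while Dnajb6 was lowest in vehicle mouse 3 on both probes. A second probe of Dnajc10 was near the limit (0.114 to 0.371 units), so the spread between mice seen on the first could not be checked on it. Hspd1, Hspe1 and Hsph1 each have 1 named probe.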
